A study of Homo sapiens with 12 samples.

Results

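The glutathione and ferroptosis defence genes described here are 10 genes of the 57820 gene identifiers in the tables: MGST1, MGST2, MGST3, GPX4, GSTP1, GCLC, GCLM, SLC7A11, NQO1 and HMOX1. MGST1 was picked out because its RNA was among the largest losses when SMARCB1 was restored in solvent-treated cells, and the other 9 were taken from the same pathways by name. The set was thus chosen by the MGST1 values of that comparison, and these values are given below as a description without a test. Each of the 10 genes matched 1 row of the tables, and 9 had enough counts to be tested. They are scattered over the genome: MGST3 and GCLM lie on chromosome 1, MGST2 and SLC7A11 on 4, GCLC on 6, GSTP1 on 11, MGST1 on 12, NQO1 on 16, GPX4 on 19 and HMOX1 on 22.

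Ferroptosis is a form of cell death in which iron drives the peroxidation of membrane lipids until the membrane fails. Cells hold it off mainly with glutathione: the transporter SLC7A11 imports cystine, the enzyme glutamate-cysteine ligase (GCLC and GCLM) starts glutathione synthesis, and the selenoprotein GPX4 uses glutathione to reduce lipid hydroperoxides. The transcription factor NRF2, paired with a small MAF protein, binds the antioxidant response element and drives many of these genes, while KEAP1 marks NRF2 for destruction and BACH1 competes for the same element.

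The samples were 12 RNA-seq libraries of G401, a cell line from a malignant rhabdoid tumour that carries no intact SMARCB1 gene, in 4 groups of 3. SMARCB1 belongs to the SWI/SNF (BAF) family of complexes, which move and open nucleosomes. The labels give a SMARCB1(-/-) genotype and doxycycline induction for every group, so the controls also received the inducer: GFP cells expressed the marker protein GFP, and SMARCB1 cells expressed SMARCB1. Each was kept for 24 h in DMSO, the solvent, or in dBRD9-A, a small-molecule degrader of BRD9, a bromodomain protein found in non-canonical BAF. The dose of dBRD9-A and the length of induction before treatment are not given in the sources used here. All libraries came from 1 cell line, and the labels do not say whether replicates were separate cultures, so p-values measure the spread between these libraries, which may be technical.

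SMARCB1 itself had 0 to 2 counts in the 6 GFP libraries, 1875 ± 59.4 CPM (counts scaled to a common library size; SD, n = 3) in SMARCB1 cells in DMSO and 1307 ± 27.0 CPM in SMARCB1 cells with dBRD9-A, so the transgene itself was 0.52 lower (log2, adjusted p = 4.95e-08 by edgeR's quasi-likelihood test) with the degrader. Its part in the comparisons of SMARCB1 cells was not tested. BRD9 RNA averaged 38.3 CPM for GFP cells in DMSO and 41.1 CPM with the degrader, which acts on the protein, so its RNA does not check the labels. Libraries held 34.97 to 58.54 megacounts assigned to genes. Lineage markers were detected in every group and moved with SMARCB1 without overlap of replicates: the mesenchymal gene VIM averaged 1317 CPM in GFP and 2309 CPM in SMARCB1 cells in DMSO (1267 and 2237 with dBRD9-A), KRT18 2534 and 1691 CPM (2471 and 1678) and KRT8 2308 and 1896 CPM (2392 and 1902). Their part in the results was not tested. In contrast, the leukocyte gene PTPRC had 0 counts and the hepatocyte gene ALB at most 1 in any library. Within groups, pairs of libraries differed by more than counting noise (chi-square per degree of freedom 3.02 to 26.2), and the highest value came from replicates 2 and 3 of SMARCB1 cells with dBRD9-A.

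Promoter windows of 250 bases before to 50 bases after a RefSeq start (build GRCh38.p14) were at hand for 7 of the 10 genes. They are shown for the antioxidant response element, since NRF2 is the factor best known to act on this set. The core searched for was TGACNNNGC on both strands. It was found for 3 of the 7 genes, GCLM, GSTP1 and 1 of the 3 windows of MGST1, beside 16.1% of 27305 genes (13.3% of 35116 windows), and not in those of MGST3, GPX4, GCLC and NQO1. The 3 sites follow with 10 bases on either side and the matched core in capitals; the GCLM match reads on the opposite strand, and the GSTP1 match overlaps an AP-1 match (TGANTCA), which 7.71% of windows hold.
GCLM site, chr1:93909446-93909474, minus strand, core at positions -34 to -26 from the start: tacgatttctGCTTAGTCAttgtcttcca
GSTP1 site, chr11:67583736-67583764, plus strand, core at positions -66 to -58: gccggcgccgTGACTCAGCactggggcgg
MGST1 site, chr12:16347135-16347163, plus strand, core at positions 31 to 39 after the most upstream of 3 RefSeq starts: ggggacatcgTGACAAAGCaaattgtctg

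A match in these windows is a description of letters and not evidence of binding, and a missing match says nothing about NRF2 beyond the window. For MGST1, the gene with the greatest change in the set, the 250 bases before the middle RefSeq start are also shown, on the plus strand, with neither motif in the window.
MGST1 upstream sequence, chr12:16347395-16347644: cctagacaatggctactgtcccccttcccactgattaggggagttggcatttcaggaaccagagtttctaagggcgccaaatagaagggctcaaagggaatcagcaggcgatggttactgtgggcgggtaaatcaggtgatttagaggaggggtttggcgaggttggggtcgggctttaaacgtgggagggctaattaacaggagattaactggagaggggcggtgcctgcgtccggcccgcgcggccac

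MGST1 RNA was present in all 6 GFP libraries and nearly absent from all 6 SMARCB1 libraries, whether or not dBRD9-A was given. With dBRD9-A, HMOX1 and SLC7A11 were also lower in SMARCB1 than in GFP cells, at 33.7 against 56.4 CPM and 25.5 against 32.4 CPM, and GCLM was slightly lower. GCLC, GSTP1 and NQO1 were 1.12- to 1.16-fold higher relative to the bulk of genes. Scaling to spike-in RNAs reversed that direction, past the threshold for GSTP1 only, whereas in DMSO both scalings gave higher levels with SMARCB1. For GPX4 no difference relative to the bulk of genes passed the test. With the degrader, NQO1 fell in both cell states on this scale, but in GFP cells not on the spike-in scale described below, and HMOX1 rose in GFP cells, while in SMARCB1 cells it was at 34.0 CPM without and 33.7 CPM with it.

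**Figure D1:**
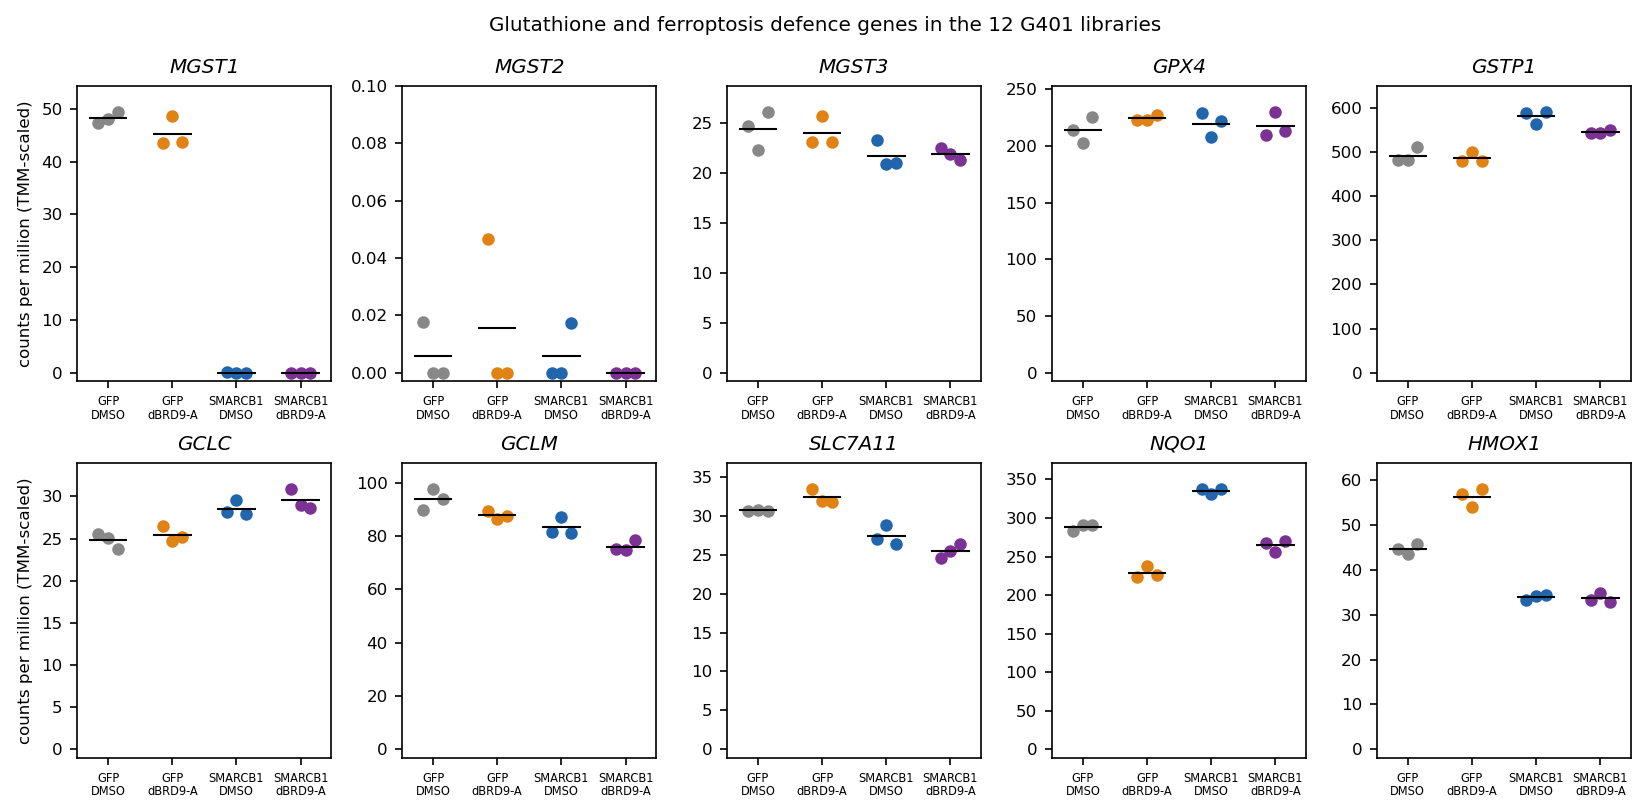
Level of each of the 10 genes (y axes, CPM on TMM-scaled library sizes, each from 0 and on its own scale) in the 12 libraries, 3 points for each group, with a line at the group mean. MGST1 falls from 43.5 to 49.4 CPM in GFP libraries to at most 0.105 CPM in SMARCB1 libraries, HMOX1 is highest in GFP cells with dBRD9-A, and MGST2 stays at 2 counts or fewer.

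Unless stated otherwise, fold changes are on the TMM scale (edgeR's default normalization), which places the typical gene at no change. Scaling to the ERCC spike-in RNAs in the tables instead put the median gene at a log2 fold change of 0.17 for SMARCB1 against GFP in DMSO, -0.32 for the same comparison with dBRD9-A, 0.36 for dBRD9-A against DMSO in GFP cells and -0.14 in SMARCB1 cells. How the spike-ins were added is not given in the sources used here. Small changes of single genes flip between the scales, and the closing section lists the reversals. In bulk RNA, fewer cells with a transcript and less of it per cell cannot be told apart.

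Calls were made at an adjusted p of 0.05 (edgeR's quasi-likelihood test with Benjamini-Hochberg adjustment over 15750 genes). In the choosing comparison, SMARCB1 against GFP in DMSO, 65% of all genes were past that level (33.5% higher and 31.6% lower) and 8 of the 9 genes were (3 higher and 5 lower). MGST1 is among those 8 by choice, so this count is a description and nothing is read from it. The comparison was then made in the 6 dBRD9-A libraries, which share none with the choosing comparison apart from the common estimate of the spread. There 7 of 9 passed, 3 higher and 4 lower, beside 63.3% of all genes (33% higher and 30.4% lower). A share of 7 in 9 is thus close to that of genes at large. Replicates did not overlap between the groups for 8 of 9 genes, beside 66.2% of all genes (7 of 9 and 68.7% in DMSO). Under spike-in scaling 7 of 9 were again called, all of them lower, beside 9046 lower and 2129 higher of the 15750 genes.

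SLC7A11, the cystine-glutamate antiporter, was measured at 33.5, 31.9 and 31.8 CPM in GFP cells given dBRD9-A and at 24.5, 25.4 and 26.4 CPM in SMARCB1 cells with dBRD9-A. The groups did not overlap. The log2 fold change was -0.35 (SE 0.04, adjusted p = 1.72e-06), or 1.27-fold lower. In DMSO its level was 30.7 ± 0.0941 CPM in GFP cells and 27.4 ± 1.26 CPM in SMARCB1 cells (SD, n = 3), a log2 difference of -0.17 that spike-in scaling brought to 0.00053.

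GCLM, the modifier subunit of glutamate-cysteine ligase, had 89.5, 86.4 and 87.5 CPM in GFP cells given dBRD9-A and 75.1, 74.6 and 78.4 CPM in SMARCB1 cells with dBRD9-A. Every SMARCB1 library was below every GFP library. It fell by 0.21 on the log2 scale (SE 0.04, adjusted p = 8.37e-05). In DMSO the means were 93.8 ± 3.96 and 83.2 ± 3.31 CPM (SD, n = 3), a log2 difference of -0.17 that spike-in scaling brought to -0.0073.

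GCLC, the catalytic subunit of the same enzyme, had the opposite sign on the TMM scale. Its libraries read 26.5, 24.7 and 25.2 CPM in GFP cells given dBRD9-A and 30.9, 29 and 28.7 CPM in SMARCB1 cells with dBRD9-A, with no overlap. It rose by 0.21 (log2, SE 0.05, adjusted p = 0.000699), but under spike-in scaling the value was -0.11 (adjusted p = 0.184). In DMSO the means were 24.8 ± 0.921 and 28.5 ± 0.949 CPM (SD, n = 3), and spike-in scaling also gave a higher level with SMARCB1 (0.37, log2). The annotation places 1 gene on the same strand and 1 on the opposite strand over GCLC, and 1 antisense gene over SLC7A11, so a share of reads could belong to these.

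GPX4, the enzyme that reduces phospholipid hydroperoxides, was measured at 223, 223 and 227 CPM in GFP cells given dBRD9-A and at 209.7, 230.1 and 213 CPM in SMARCB1 cells with dBRD9-A. The groups overlapped. The log2 fold change was -0.04 (SE 0.04, adjusted p = 0.394), while spike-in scaling gave -0.37 (adjusted p = 7.99e-06). In DMSO the libraries read 214, 202 and 226 CPM with GFP and 229.5, 208 and 222 CPM with SMARCB1, again overlapping. There the spike-in scale gave a log2 difference of 0.21, opposite in sign to that with dBRD9-A.

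Among the transferases, MGST1, a membrane enzyme that conjugates glutathione and reduces lipid peroxides, stood apart from the rest of the set in the size of its change. In DMSO it had 47.4, 48.1 and 49.4 CPM in GFP cells, and 4, 0 and 0 counts in SMARCB1 cells. Set against the pooled SMARCB1 counts, the GFP level was 1642-fold higher. This ratio rests on 4 counts and describes the values by which MGST1 was chosen. All 4 counts came from replicate 1 of SMARCB1 cells in DMSO, so without that library no count remained.

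With dBRD9-A, MGST1 read 43.5, 48.6 and 43.6 CPM in the GFP libraries and 0 counts in each of the 3 SMARCB1 libraries. A count of 0 allows up to 3 counts, at most 0.0745 CPM in these libraries, so the level was at least 607-fold lower (adjusted p = 1.54e-16 by edgeR's quasi-likelihood test, lower in 3 of 3 libraries). MGST1 passed the filter on low counts only through its GFP libraries and was chosen for a loss in this direction. The p therefore adds no support beyond the counts. Within GFP cells, dBRD9-A left MGST1 at 45.2 ± 2.91 CPM against 48.3 ± 1.03 CPM in DMSO (SD, n = 3), a log2 difference of -0.09 (SE 0.06, adjusted p = 0.372) that spike-in scaling turned to 0.26. Genes annotated over MGST1 are 2 on its own strand and 2 on the other, among them LMO3, which had 22 counts in the 1 SMARCB1 library with MGST1 counts and 0 in the other SMARCB1 libraries. Strand use in counting is not given in the sources used here, and the part of LMO3 reads in those 4 counts was not tested.

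Of its relatives, MGST2, which also makes leukotriene C4, had 0 to 2 counts in every library, at or under the floor of 3 counts, so no difference in it was detectable at this depth. MGST3 was measured at 23.1, 25.7 and 23.1 CPM in GFP cells given dBRD9-A and at 22.6, 21.9 and 21.3 CPM in SMARCB1 cells with dBRD9-A. The groups did not overlap, but the log2 fold change of -0.13 (SE 0.06) had an adjusted p of 0.0768. It was called lower on the spike-in scale (-0.45, adjusted p = 2.85e-06), with only the groups compared in the fit (-0.14, adjusted p = 0.0388) and without GFP DMSO replicate 3 (-0.14, adjusted p = 0.0481). In DMSO the MGST3 groups overlapped, and the log2 difference was -0.17, or 0.0032 on the spike-in scale.

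GSTP1, the cytosolic pi-class transferase, was measured at 480.4, 499 and 480.1 CPM in GFP cells given dBRD9-A and at 543, 544 and 549 CPM in SMARCB1 cells with dBRD9-A. All SMARCB1 libraries were above all GFP libraries. The rise was 0.16 (log2, SE 0.03, adjusted p = 0.000108) on the TMM scale, and -0.16 (adjusted p = 0.0255) on the spike-in scale, so its direction depends on the scaling. In DMSO the means were 491 ± 17.5 and 580.3 ± 15.1 CPM (SD, n = 3), and both scales gave a higher level with SMARCB1 (0.24 and 0.41, log2). A processed copy of the gene, GSTP1P1, had 0 counts.

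NQO1, a quinone reductase and a standard readout of NRF2, was lower with the degrader in both cell states on the TMM scale, while on the spike-in scale its value in GFP cells was above 0. In GFP cells it had 283, 290.4 and 291 CPM in DMSO and 223, 238 and 226 CPM with dBRD9-A. In SMARCB1 cells it had 338, 331 and 337 CPM in DMSO and 268, 256 and 270.4 CPM with dBRD9-A. No library of one treatment overlapped the other in either state. It fell by 0.33 (log2, SE 0.03, adjusted p = 4.52e-07) and by 0.34 (SE 0.03, adjusted p = 2.97e-06), and the difference between the falls was -0.01 (SE 0.04, adjusted p = 0.945).

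On the spike-in scale the NQO1 change in GFP cells was 0.03 (adjusted p = 0.723), where the median gene was at 0.36, and -0.48 (adjusted p = 6.28e-06) was found in SMARCB1 cells. Against GFP cells, SMARCB1 cells with dBRD9-A had NQO1 higher by 0.21 (log2, SE 0.03, adjusted p = 8.9e-06), which spike-in scaling turned to -0.12 (adjusted p = 0.104). In DMSO both scales gave a higher NQO1 level with SMARCB1 (0.39 on the spike-in scale, log2). One gene on the opposite strand, AC092115.2, overlaps NQO1 in the annotation.

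HMOX1, haem oxygenase 1, which breaks down haem and frees its iron, was the 1 gene of the 9 tested whose response to dBRD9-A differed between the cell states by the test on the TMM scale. In GFP cells it had 44.7, 43.7 and 45.9 CPM in DMSO and 57.0, 54.0 and 58.2 CPM with dBRD9-A, with no overlap. In SMARCB1 cells it had 33.4, 34.2 and 34.5 CPM in DMSO and 33.2, 34.97 and 32.9 CPM with dBRD9-A, which overlapped. The rise in GFP cells was 0.33 (log2, SE 0.04, adjusted p = 6.39e-06), or 1.26-fold, and the value in SMARCB1 cells was -0.01 (SE 0.04, adjusted p = 0.937).

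The difference between these HMOX1 responses was -0.35 (log2, SE 0.05, adjusted p = 0.000887 by edgeR's quasi-likelihood test), where 3.8% of all genes passed (2.15% higher and 1.65% lower) and 1 of the 9 genes tested did. The pairwise differences between libraries in the 2 cell states did not overlap for 2 of 9, beside 9.26% of all genes. On the spike-in scale it was -0.85, where the median gene was at -0.49. With dBRD9-A, SMARCB1 cells had 1.67-fold less HMOX1 than GFP cells (log2 -0.74, SE 0.04, adjusted p = 1.39e-11). That comparison uses the same GFP libraries with dBRD9-A as the rise in GFP cells. In DMSO the log2 difference was -0.39, and both scales gave a lower level with SMARCB1.

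Counted over the set, dBRD9-A against DMSO in GFP cells passed for 2 of 9 genes, HMOX1 higher and NQO1 lower, beside 15.9% of all genes (7.43% higher and 8.47% lower), and replicates did not overlap for 4 of 9, beside 34% of all genes. In SMARCB1 cells NQO1 was the 1 of 9 that passed, and it was lower, beside 1.93% of all genes (0.679% higher and 1.25% lower); replicates did not overlap for 3 of 9, beside 16.9% of all genes. These comparisons share their DMSO libraries with the choosing comparison. On the spike-in scale, 8 of 9 were higher in GFP cells and 4 of 9 lower in SMARCB1 cells. Of all 15750 genes, 11083 were higher in GFP cells and 834 lower in SMARCB1 cells on that scale. For GCLM the log2 fold change with dBRD9-A was -0.09 in GFP cells (adjusted p = 0.0932; 0.26 on the spike-in scale, adjusted p = 0.000545) and -0.13 in SMARCB1 cells (adjusted p = 0.0960; -0.26 on the spike-in scale, adjusted p = 0.0155), without overlap of replicates in either. For SLC7A11 the difference between responses was -0.18 (SE 0.06, adjusted p = 0.131).

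**Figure D2:**
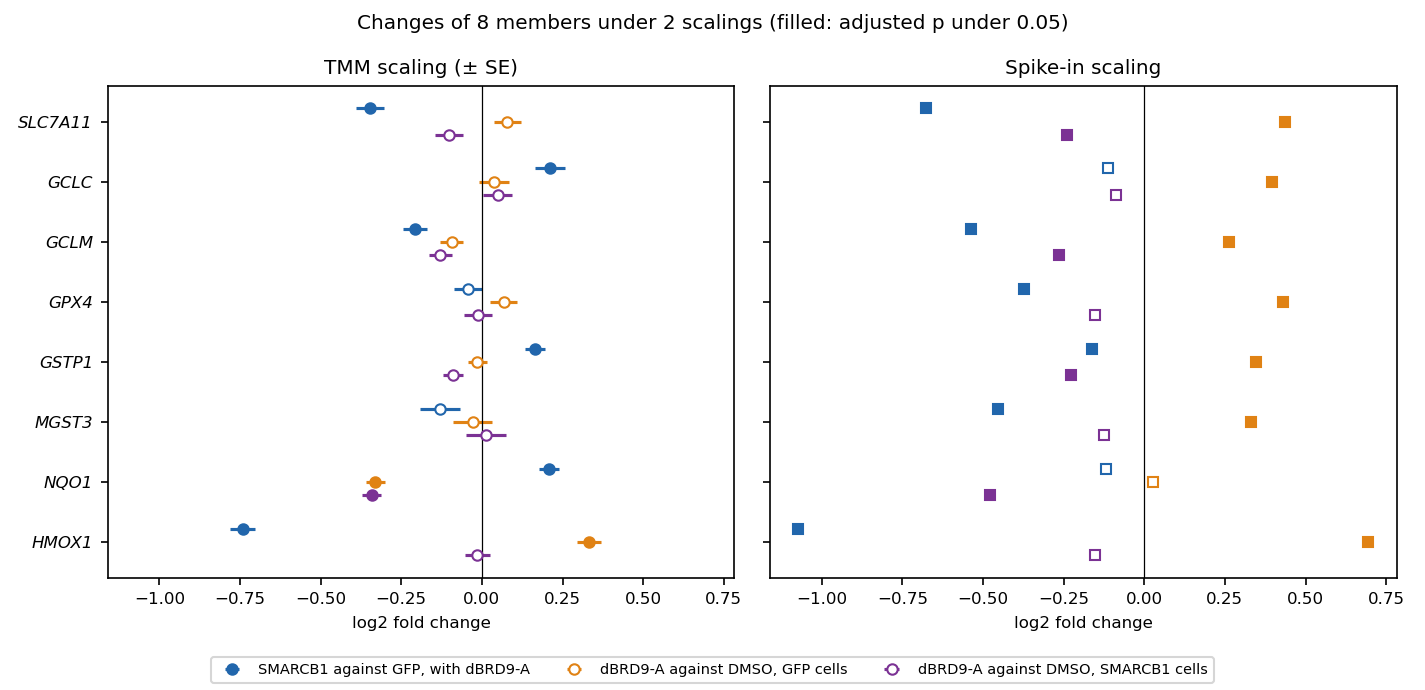
Log2 fold changes (x axes) of 8 genes of the set in 3 comparisons, on the TMM scale with ± SE bars (left) and on the spike-in scale (right), filled where the adjusted p is under 0.05. HMOX1 keeps its rise in GFP cells (0.33 and 0.69) and its lower level in SMARCB1 cells on both scales. NQO1 with dBRD9-A in GFP cells goes from -0.33 to 0.03, and GCLC, GSTP1 and NQO1 change sign in SMARCB1 against GFP with dBRD9-A.

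The genes whose pattern over the 12 libraries was most like that of MGST1, by Pearson's r of log2 CPM, were GRAMD2B (0.999), SPHK1 (0.998), KLF7 (0.998), TRABD2A (0.997) and MACROH2A1 (0.997). The libraries fall into 2 clusters, GFP and SMARCB1, so this is a description of how genes split them, with no p. SPHK1, sphingosine kinase 1, had 91.8 ± 1.08 CPM in GFP cells and 20.7 ± 1.86 CPM in SMARCB1 cells in DMSO. KLF7, a zinc-finger transcription factor, had 15.2 ± 1.15 and 0.109 ± 0.0642 CPM (SD, n = 3). Pearson's r does not weigh the size of a fall: in the same groups TRABD2A averaged 57.6 and 21.2 CPM and MACROH2A1 459 and 300 CPM. GRAMD2B was 258-fold lower in SMARCB1 cells in DMSO, a ratio that rests on 2 counts in all, and at least 38.2-fold lower with dBRD9-A.

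Around the 10 genes, 108 others of the same pathways were listed by role, with earlier results of these data known, and 88 of them were tested. In SMARCB1 against GFP cells with dBRD9-A, 68 of the 88 passed, 30 higher and 38 lower, beside 63.3% of all genes (33% higher and 30.4% lower), and in DMSO 69 did, beside 65%. Of these, 63 were called in both, which is 63 of 68 and 63 of 69, and all 63 had the same sign. The same overlap was not counted over all genes, so nothing particular to these genes is read from it. On the spike-in scale the split with dBRD9-A was 9 higher and 63 lower, beside 2129 and 9046 of all 15750 genes. The median log2 fold change of the 88 was -0.02, beside 0.01 for all genes tested.

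**Figure D3:**
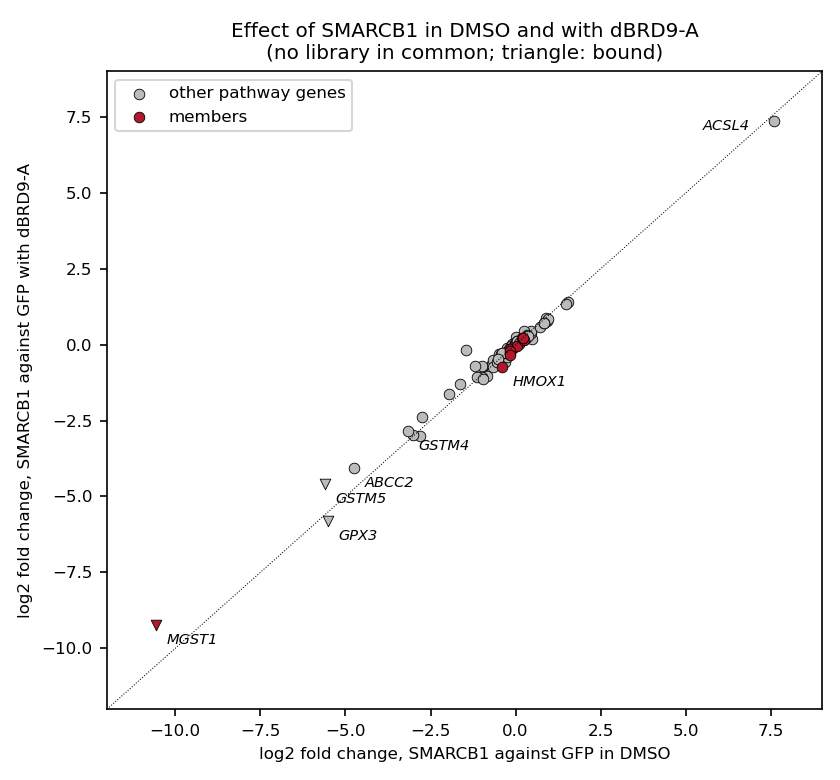
Log2 fold change of SMARCB1 against GFP in DMSO (x axis) and with dBRD9-A (y axis) for 9 genes of the set (red) and 88 other pathway genes (grey), on the TMM scale, with the line of equal change. Triangles stand at the floor of 3 counts on any axis where the SMARCB1 libraries were at or under it. For MGST1 and GSTM5 that is the y axis only, and their x values are fold changes of the model that rest on few counts. MGST1 is at the lower end and ACSL4 at the upper end, and the comparisons share no library.

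Other glutathione S-transferases and related membrane proteins were mostly lower with SMARCB1. With dBRD9-A, 8 of 11 were lower and 2 higher, beside 30.4% and 33% of all genes, with a median log2 fold change of -0.88. Related mu-class genes (GSTM) are among those lower, so this is not a count of unrelated genes. The count and median were not taken without them. On the spike-in scale 9 were lower and 0 higher, beside 9046 and 2129 of all 15750 genes. GSTM1, a mu-class transferase, fell from 10.05 ± 0.655 to 1.24 ± 0.0713 CPM (SD, n = 3; log2 -3.00, adjusted p = 2.72e-14), and GSTM5 was 83.1-fold lower (95% Poisson interval 28.4 to 403 for 3 counts in all, adjusted p = 2.1e-10). GSTM5 passed the filter on low counts only through its GFP libraries, so its p adds little to the counts. The mu-class genes resemble each other in sequence, and some of their reads may have been divided among them in error. Their sum, which such division does not alter, was 129 ± 3.85 CPM in GFP and 17.2 ± 1.09 CPM in SMARCB1 cells with dBRD9-A, 7.51-fold lower, and 8.72-fold lower in DMSO. GSTO1, an omega-class transferase, rose by 0.43 and GSTZ1 by 0.23 (log2), but on the spike-in scale GSTO1 was at 0.11 (adjusted p = 0.168) and GSTZ1 at -0.10 (adjusted p = 0.266).

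Among ferroptosis-promoting lipid and iron genes, ACSL4, the acyl-CoA synthetase that loads membranes with polyunsaturated fatty acids, had the largest rise of the 88 genes, with 0.296 ± 0.119 CPM in GFP and 49.5 ± 2.41 CPM in SMARCB1 cells with dBRD9-A (SD, n = 3). Its log2 fold change was 7.35 (SE 0.12, adjusted p = 5.48e-19). In DMSO it went from 0.250 ± 0.105 to 46.4 ± 0.187 CPM. STEAP3, a ferric reductase of endosomes, rose by 0.89 (adjusted p = 3.22e-13), while SAT1, a polyamine acetyltransferase, fell by 1.12 (adjusted p = 3.55e-14) and the lysophospholipid acyltransferase LPCAT3 fell by 0.42 (adjusted p = 4.85e-08). Of the 10 tested, 6 rose and 2 fell, beside 33% and 30.4% of all genes, with a median of 0.10. On the spike-in scale 2 rose and 7 fell, beside 2129 and 9046 of all 15750 genes.

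Ferroptosis defences listed apart from the glutathione genes were mostly lower: 9 of 14 fell and 2 rose, beside 30.4% and 33% of all genes. Their median was -0.44. On the spike-in scale 13 were lower and 1 higher, beside 9046 and 2129 of all 15750 genes. GCH1, the first enzyme of tetrahydrobiopterin synthesis, went from 81.4 ± 2.63 to 39.0 ± 0.496 CPM (SD, n = 3; log2 -1.06, adjusted p = 8.84e-15). SCD, which makes monounsaturated fatty acids, went from 1091 ± 36.2 to 521 ± 23.0 CPM (log2 -1.07, adjusted p = 6.77e-15). MBOAT1, a phospholipid acyltransferase, went the other way, from 3.44 ± 0.586 to 9.06 ± 0.394 CPM (log2 1.40, adjusted p = 2.89e-09). COQ2, of ubiquinone synthesis, rose by 0.11 on the TMM scale (adjusted p = 0.0171) and was at -0.22 on the spike-in scale. Without GFP dBRD9-A replicate 1 or 3 or SMARCB1 dBRD9-A replicate 1, its adjusted p was 0.0590, 0.0984 and 0.0672.

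Of the glutathione peroxidases, GPX3, the secreted form, went from 150 to 179 counts per library in GFP cells with dBRD9-A to 0 to 2 in SMARCB1 cells. That is 193-fold lower, with a 95% Poisson interval of 66.0 to 935 for 3 counts in all (adjusted p = 6.57e-13). Only through its GFP libraries did GPX3 pass the filter on low counts, so this p adds little to the counts. The selenocysteine synthesis gene SEPSECS rose by 0.45 (adjusted p = 4.66e-06), and was at 0.12 (adjusted p = 0.182) on the spike-in scale. Apart from GPX3 and GPX8, the genes tested in this list are of selenoprotein synthesis. GPX1, GPX2 and GPX7 had too few counts to be tested. Of 7 tested, 4 rose and 2 fell, beside 33% and 30.4% of all genes, with a median of 0.11. On the spike-in scale 0 rose and 4 fell, beside 2129 and 9046 of all 15750 genes. In glutathione synthesis and recycling, 4 of 15 rose and 6 fell, a share called close to the 63.3% of all genes, with a median of 0.05. On the spike-in scale 0 rose and 10 fell, beside 2129 and 9046 of all 15750 genes. Glutathione synthetase, GSS, fell by 0.40 (adjusted p = 4.56e-08) and glutathione reductase, GSR, by 0.31 (adjusted p = 5.7e-09). The glutathione-degrading enzyme CHAC2 rose by 0.39 and the 5-oxoprolinase OPLAH by 0.37, and on the spike-in scale these were 0.06 (adjusted p = 0.460) and 0.04 (adjusted p = 0.730).

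NRF2 itself, encoded by NFE2L2, was measured at 65.2 ± 2.87 CPM in GFP and 67.1 ± 2.85 CPM in SMARCB1 cells with dBRD9-A (SD, n = 3). The difference of 0.04 (log2, SE 0.04) had an adjusted p of 0.390. KEAP1 was at 0.01 (SE 0.03, adjusted p = 0.876). On the spike-in scale these were -0.29 and -0.32, both near the median gene. BACH1 rose by 0.31 (adjusted p = 4.99e-07) on the TMM scale and was at -0.01 on the spike-in scale. MAFK, a small MAF partner of NRF2, fell by 1.28 (log2, adjusted p = 2.46e-11), from 32.01 ± 1.76 to 13.0 ± 1.77 CPM, and MAFF by 0.30 (adjusted p = 0.00395). Of the 9 genes of this list, 2 rose and 3 fell, beside 33% and 30.4% of all genes. On the spike-in scale 0 rose and 8 fell, beside 2129 and 9046 of all 15750 genes.

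Other NRF2 target genes did not move in one direction: 10 of 22 rose and 8 fell, beside 33% and 30.4% of all genes. Their median was 0.04. On the spike-in scale 6 rose and 12 fell, beside 2129 and 9046 of all 15750 genes. AKR1B1, an aldose reductase, rose by 1.35 (adjusted p = 6.29e-14) and the exporter gene ABCC4 by 0.83 (adjusted p = 5.54e-14). ABCC2, another exporter that carries glutathione conjugates, went from 10.8 ± 0.723 to 0.638 ± 0.0303 CPM (SD, n = 3; log2 -4.07, adjusted p = 1.42e-15). OSGIN1, an oxidative stress-induced gene, fell by 1.62 (adjusted p = 5.41e-10). These 4 kept their direction on the spike-in scale.

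**Figure D4:**
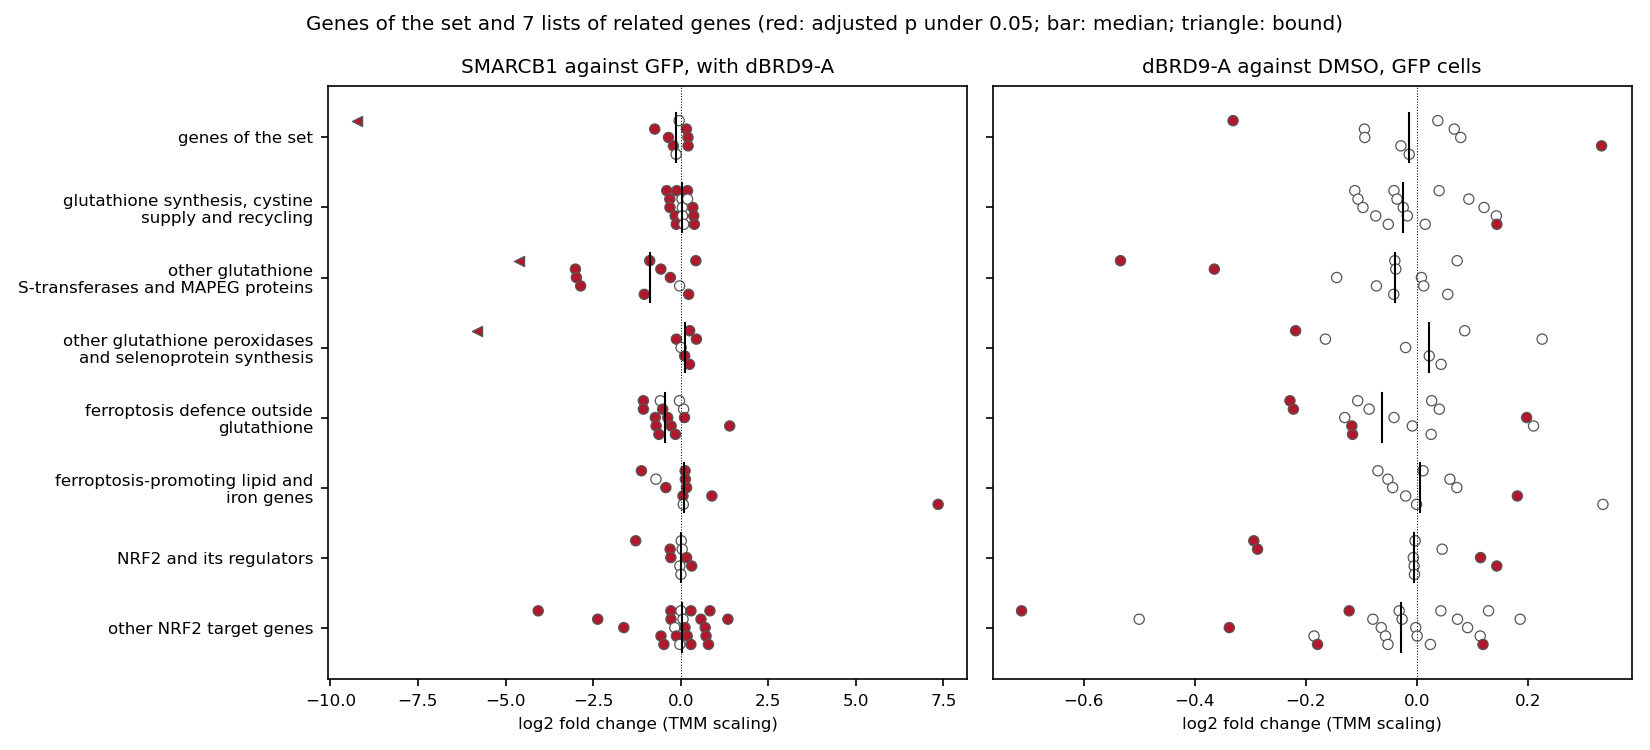
Log2 fold change on the TMM scale (x axes) of the genes of the set and of the 7 lists of related genes, 1 point for each gene tested, red where the adjusted p is under 0.05, with a bar at each median; left, SMARCB1 against GFP with dBRD9-A, and right, dBRD9-A against DMSO in GFP cells. Triangles stand at the floor of 3 counts. The transferase list (median -0.88) and the defences listed apart from the glutathione genes (median -0.44) lie to the left of 0 on the left. On the right the medians lie between -0.06 and 0.02. On the spike-in scale all 8 medians on the left are below 0 and those on the right above 0. The median of all genes on that scale was -0.32 on the left and 0.36 on the right.

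With the degrader in GFP cells, 19 of the 88 related genes passed, 6 higher and 13 lower, beside 15.9% of all genes (7.43% higher and 8.47% lower). ABCC2 fell by 0.71 (adjusted p = 1.03e-06), from 17.6 ± 0.571 to 10.8 ± 0.723 CPM (SD, n = 3), and was lower on the spike-in scale too (-0.35, adjusted p = 0.000973). GCH1 rose by 0.20 (adjusted p = 0.000268), LPCAT3 by 0.18 (adjusted p = 0.0038), KEAP1 by 0.14 (adjusted p = 0.0026) and SQSTM1, an autophagy receptor that binds KEAP1, by 0.11 (adjusted p = 0.0045), and all 4 were higher on the spike-in scale. NFE2L2 and BACH1 were at -0.01 each on the TMM scale (adjusted p = 0.960 and 0.936) and at 0.36 and 0.35 on the spike-in scale.

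Falls in GFP cells with dBRD9-A were SCD by 0.23 (adjusted p = 7.02e-05), MAFK by 0.29 (adjusted p = 0.00395), GSTM4 by 0.36 (adjusted p = 1.18e-06) and PDSS1, of ubiquinone synthesis, by 0.22 (adjusted p = 0.0021). On the spike-in scale GSTM4 was at -0.01 and the other three were above 0, at 0.13, 0.08 and 0.14. Over all 88 genes that scale gave 72 higher and 1 lower, beside 11083 and 227 of all 15750 genes.

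In SMARCB1 cells, 4 of the 88 passed with dBRD9-A, beside 1.93% of all genes, and they were named after their values were seen. GSS was higher by 0.20 (log2, adjusted p = 0.00953), and at 0.06 (adjusted p = 0.512) on the spike-in scale. FTL, the ferritin light chain, fell by 0.15 (adjusted p = 0.00557), SAT1 by 0.19 (adjusted p = 0.0133) and SCD by 0.15 (adjusted p = 0.0195). The calls of GSS, SAT1 and SCD were lost without SMARCB1 DMSO replicate 3 (adjusted p = 0.0751, 0.0599 and 0.0922), that of SAT1 also without replicate 1 of that group (0.0653) and that of SCD without replicate 2 (0.0641) or with only the groups compared in the fit (0.0724). For the difference between the responses of SMARCB1 and GFP cells, 3 of 88 passed and were higher (GSTM4, MBOAT2 and PDSS1). This is no more than the 3.8% of all genes. On the spike-in scale 0 of the 88 were higher and 75 lower, beside 66 and 11204 of all 15750 genes.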

How the data were processed

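RNA was extracted with a Qiagen RNeasy Plus kit and made into TruSeq Stranded mRNA libraries, per the labels' protocols. The deposited values are RSEM expected counts for each gene, in 3 tables; the submitters' processing notes name GRCh37/hg19, STAR, RSEM 1.3.1 and DESeq2, while the gene annotation and the use of strand are not given in the sources used here. The 6 libraries held in more than 1 table had identical values and were used once.

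Expected counts were rounded to whole numbers for the tests. The 40 ERCC spike-in identifiers (0.963 to 1.30% of counts) were kept out of library sizes. Genes were filtered with filterByExpr (minimum count 10), leaving 15750. Libraries were scaled by TMM (factors 0.976 to 1.02), and 1 edgeR 4.0.16 quasi-likelihood model (R 4.3.3) was fitted over all 4 groups of 3 libraries, with Benjamini-Hochberg adjustment over all genes and a threshold of 0.05. A count of 0 was taken to allow up to 3 counts, 0.0516 to 0.0847 CPM by library; intervals and floors cover counting error only. Standard errors are of the log2 fold change.

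The genes of the set and the lists were chosen with earlier results of these data known. The genes named from each list were at most 2 rises and 2 falls by size for SMARCB1 against GFP with dBRD9-A and for dBRD9-A against DMSO in GFP cells, with non-overlapping replicates and a mean of at least 50 counts, plus NFE2L2, KEAP1 and BACH1; the text describes these in part. Alternatives were DESeq2 size factors, spike-in scaling, the DESeq2 1.42.0 Wald test, no filter, only the groups compared, a replicate block, a fold threshold and leaving out each library. Simulated data for SMARCB1 against GFP with dBRD9-A (15499 genes) had 100 genes changed by 0.5 (log2) and 100 by 1. All of these had a mean of at least 50 counts. Of them 89% and 98% were called, and 7.88% of calls were false, above the 0.05 set as threshold. In the data 63.3% of genes passed, so these rates may not carry over to the data. Promoter sequences are from RefSeq (GRCh38.p14), and chromosomes and overlaps from GENCODE release 29.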

Additional observations from a re-analysis of the deposited data

Results flagged for a closer look

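The response to dBRD9-A differed between SMARCB1 and GFP cells for 1 of the 9 genes of the set and 3 of the 88 related genes, by the interaction term of edgeR's quasi-likelihood model with Benjamini-Hochberg adjustment. Of all genes 3.8% passed, close to the 3.41% of the related genes, and the 11.1% of the set is 1 gene. For HMOX1 the difference (SMARCB1 minus GFP cells, log2) was -0.35 (SE 0.05, adjusted p = 0.000887) and -0.85 on the spike-in scale, and it stayed between -0.38 and -0.32 with any 1 library left out (adjusted p up to 0.00427).

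The other 3 had a positive difference on the TMM scale and a negative one on the spike-in scale. GSTM4 differed by 0.29 (SE 0.06, adjusted p = 0.0112), with mean CPM of 113 without and 87.8 with dBRD9-A in GFP cells, and of 12.7 without and 12.1 with it in SMARCB1 cells, and by -0.20 on the spike-in scale; without SMARCB1 dBRD9-A replicate 3 it was 0.23 (adjusted p = 0.0603). PDSS1 differed by 0.28 (SE 0.07, adjusted p = 0.0246), with mean CPM of 37.0 without and 31.8 with dBRD9-A in GFP cells, and of 18.8 without and 19.6 with it in SMARCB1 cells, and by -0.22 on the spike-in scale. The PDSS1 call was lost without any 1 of 6 libraries (GFP DMSO replicate 3, SMARCB1 DMSO replicate 1, and replicates 1 and 3 of both dBRD9-A groups), with adjusted p up to 0.0868. MBOAT2, a phospholipid acyltransferase named after its values were seen, differed by 0.15 (SE 0.04, adjusted p = 0.0317), with mean CPM of 128 without and 118 with dBRD9-A in GFP cells, and of 81.0 without and 82.9 with it in SMARCB1 cells, and by -0.35 on the spike-in scale. Without the filter on low counts MBOAT2 was at 0.16 (adjusted p = 0.0521). Its call was also lost in 10 of 12 fits that left out 1 library (adjusted p up to 0.0971), the exceptions being SMARCB1 DMSO replicate 2 and SMARCB1 dBRD9-A replicate 2.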

How the results depend on the processing

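Spike-in scaling changed the most values; the cause was not tested. Of the 9 genes tested it called 8 for dBRD9-A in GFP cells, 4 in SMARCB1 cells and 9 for the difference between responses. Of all 15750 genes it called 11310, 873 and 11270 in the same comparisons. Under it the log2 fold change reversed to -0.16 for GSTP1, -0.11 for GCLC and -0.12 for NQO1 in SMARCB1 against GFP with dBRD9-A; to 0.0032 for MGST3 and 0.00053 for SLC7A11 in DMSO, where GCLM moved to -0.0073; to 0.26 for MGST1, 0.33 for MGST3, 0.35 for GSTP1, 0.26 for GCLM and 0.027 for NQO1 with dBRD9-A in GFP cells; to -0.13 for MGST3 and -0.086 for GCLC in SMARCB1 cells; and to -0.46 for MGST3 and -0.48 for GCLC in the difference between responses. Among related genes it reversed COQ2 (-0.22), GSTZ1 (-0.10), NFE2L1 (-0.16), PSTK (-0.075), BACH1 (-0.011), KEAP1 (-0.32) and NFE2L2 (-0.29) in SMARCB1 against GFP with dBRD9-A. In GFP cells with dBRD9-A it reversed BACH1 (0.35), MAFF (0.066), MAFK (0.076), NFE2L2 (0.36), OSGIN1 (0.022), PDSS1 (0.14), SCD (0.13) and SEPSECS (0.14), and in the difference between responses GSTM4 (-0.20), MBOAT2 (-0.35) and PDSS1 (-0.22). An added absolute log2 fold change of at least 1 left 1 of the 9 genes in SMARCB1 against GFP in DMSO and 1 with dBRD9-A, and 0 in the other 3 comparisons. Without the filter, and with the DESeq2 Wald test, 2 genes were called for dBRD9-A in SMARCB1 cells, NQO1 and GCLM (GCLM adjusted p = 0.0335 and 0.0432); without the filter the NQO1 difference between responses was 0.00070. Fitted on the groups compared alone, KEAP1 was at -0.0037 and MGST3 at -0.14 (adjusted p = 0.0388) in SMARCB1 against GFP with dBRD9-A, and SCD lost its call in SMARCB1 cells (adjusted p = 0.0724). DESeq2 size factors kept the direction and call of 43 of 43 values of the set and 54 of 54 named related ones.

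With each library left out in turn, all 60 counts over the set stayed within 1.5 times, and 498 of 516 of its log2 fold changes kept direction and call. Of the rest, 14 changed sign, 2 moved in size (MGST1 in DMSO, from -14.1 to -9.8 over the fits) and 2 gained a call. The gains were GCLM for dBRD9-A in GFP cells and MGST3 in SMARCB1 against GFP with dBRD9-A, in 1 fit each. Signs changed only for values near 0: MGST3 from -0.084 to 0.026 in GFP cells, from -0.014 to 0.063 in SMARCB1 cells and from -0.021 to 0.10 in their difference; GPX4 from -0.058 to 0.019 in SMARCB1 cells; GSTP1 from -0.032 to 0.019 in GFP cells; GCLC from -0.022 to 0.039 and NQO1 from -0.036 to 0.016 in the difference; BACH1 from -0.033 to 0.016 and NFE2L2 from -0.034 to 0.030 in GFP cells; and KEAP1 from -0.021 to 0.034 in SMARCB1 against GFP with dBRD9-A. For dBRD9-A in GFP cells, related genes not described above lost their call without 1 library of those groups: GSTM5 (adjusted p up to 0.164), SEPSECS (0.102), OSGIN1 (0.0877), MAFF (0.0721), GSS (0.0658) and ABCC4 (0.0597). The replicate block kept 43 of 43 values of the set and 53 of 54 related ones (GSTM5 in GFP cells, adjusted p = 0.0722), and the counts over the set: 8, 7, 2, 1 and 1 of 9. In the titles, same-numbered libraries have consecutive identifiers across the groups, and whether they were handled together was not tested. Their deviations correlated between -0.06 and 0.06 over 18 pairs. Depth left MGST2, at 0 to 2 counts, without a test.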

Other observations

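Values from the MGST1 locus on chromosome 12, chosen after they were seen, belong to no comparison above. DERA, a deoxyribose-phosphate aldolase gene beside MGST1, was at 53.4 CPM in GFP and 64.3 CPM in SMARCB1 cells in DMSO, and at 54.7 and 66.0 CPM with dBRD9-A. The neighbours SLC15A5 and PIK3C2G had 0 counts in every library and RERGL at most 1. LMO3, which lies over MGST1 on the opposite strand, had 22 counts in replicate 1 of SMARCB1 cells in DMSO, 0 in the other 5 SMARCB1 libraries and 0 to 5 in GFP libraries.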
